A study of Mus musculus with 2 samples.

Results

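Conventional dendritic cells without Ccr7 were taken from the scaffold-filled skull defects of mice as cells with at least 4 unique molecular identifiers (UMIs, each standing for 1 captured transcript) summed over Flt3, Zbtb46, Xcr1, Clec9a and Cd209a. They were also required to hold at most 1 UMI of Ccr7 and Fscn1 together, at most 1 of Siglech and at most 5 of C1qa, C1qb and C1qc together, no UMI of Cd3e, and under 0.5% of their UMIs from S100a8 and S100a9. The rule was met by 346 of 14193 kept cells. These were 170 of 6899 cells in the library of the Gel100 scaffold and 176 of 7294 cells in the library of the Gel50_CS50 scaffold. Since the rule reads expression, the levels of these genes are given as a description only.

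Conventional dendritic cells take up material in tissues, load fragments of it onto major histocompatibility complex (MHC) molecules and present them to T cells. Type 1 cells depend on the transcription factors IRF8 and BATF3, carry the chemokine receptor XCR1 and the dead-cell receptor CLEC9A, and are known for cross-presentation, the display of taken-up antigen on MHC class I to CD8 T cells. Type 2 cells depend on IRF4, carry SIRPα and C-type lectins, and mainly prime CD4 T cells. Maturing cells of either type gain CCR7 and the actin-bundling protein fascin (Fscn1) as they leave for lymph nodes, so the rule takes the cells before that step.

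Both groups were female Balb/c mice aged 6 weeks with a cranial defect of 3.5 mm that received an acellular scaffold, Gel100 or Gel50_CS50, and both were sampled 1 week after surgery. The labels do not spell out either scaffold name, and no group without a scaffold was analysed here. Each group is 1 library made from the pooled cells of 5 mice, digested with enzymes, depleted of red cells and sorted for viable cells. There is therefore no replicate of either scaffold: no test was made, and each 95% interval reflects counting error alone and leaves out variation from mouse to mouse. Intervals of gene ratios count summed UMIs, so they also leave out variation from cell to cell and are too narrow where few cells hold most UMIs.

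The libraries held 7845 (Gel100) and 7515 (Gel50_CS50) cell barcodes with 108847835 and 150311308 UMIs. Cells with at least 1000 UMIs and at most 20% mitochondrial UMIs were kept, and their median depth was 14206 and 16954 UMIs. Barcodes removed for depth numbered 909 and 146, and barcodes removed for mitochondrial share 37 and 75. The libraries shared 24 barcodes, none of them among the dendritic cells. The dendritic cells held 4154274 and 4159647 UMIs in all, with medians of 23442 and 21409.5 UMIs per cell. A doublet caller marked 3 and 1 of them.

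Levels are given as CPM (counts scaled to a common total): the UMIs of a gene summed over the cells of a set, divided by all UMIs of that set in the same library and multiplied by 1000000. Pairs of values are always in the order Gel100 and Gel50_CS50. Ratios between scaffolds are Gel50_CS50 over Gel100 on the log2 scale, so a negative ratio is a lower level in Gel50_CS50. Since 3' end counting gives 1 UMI per captured transcript, no scaling by gene length was applied, and levels of different genes are not compared.

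Cells with at least 2 UMIs of Xcr1 and Clec9a together were called type 1, and cells with at least 1 UMI of Cd209a, a lectin, and none of Xcr1 or Clec9a were called type 2. Xcr1, on chromosome 9 (123852315 to 123862029, minus strand, mm10), was at 333 and 191 CPM in type 1 cells, and Clec9a, on chromosome 6 (129408862 to 129424763, plus strand), was at 308 and 297. Cd209a, on chromosome 8 (3743397 to 3748984, minus strand), was at 836 and 800.3 CPM in type 2 cells and 22.8 and 15 in type 1 cells. Flt3, the receptor for the growth factor that sustains dendritic cells, lies on chromosome 5 (147330741 to 147400489, minus strand) and was at 232 and 354 CPM in type 1 and 54.8 and 76.5 in type 2 cells. Zbtb46, a transcription factor of conventional dendritic cells that endothelial cells also express, lies on chromosome 2 (181387762 to 181459426, minus strand) and was at 169.5 and 135 and, in type 2 cells, 71.9 and 116. Cells with at least 2 UMIs of Cd209a and at least 2 of Xcr1 and Clec9a together numbered 3 and 2.

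The excluded genes were low in the dendritic cells, as the rule sets. Ccr7 was at 1.2 and 2.16 CPM, against 1759 and 1606 in the cells of the same libraries with at least 4 Ccr7 UMIs. Fscn1 was at 0.963 and 1.2 CPM. Siglech, a lectin of plasmacytoid dendritic cells, was at 3.85 and 2.4, against 2242 and 2221 in the cells with at least 4 of its UMIs. The rule allows S100a9, a neutrophil gene, up to its limit, and in type 2 cells it was at 8.09 and 212 CPM.

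MHC class II levels separated the typed cells from part of the rest. The 4 MHC class II genes H2-Aa, H2-Ab1, H2-Eb1 and Cd74 together had a median of 29501 and 29826 CPM per type 1 cell and 30436 and 28048 per type 2 cell. In the 41 and 43 cells that met neither type rule, here called untyped, the median was 435 and 16293 CPM. Under 5000 CPM lay 22 and 20 of the untyped cells, against 2 and 0 type 1 cells and 3 and 3 type 2 cells. Of those 22 and 20 cells, 17 and 18 carried at least 10 UMIs of natural killer and T cell markers (15 and 13 cells), or at least 20 of stromal markers (1 and 3) or of endothelial markers (1 and 2). Of the 23 and 21 untyped cells whose only rule marker was Zbtb46, 20 and 18 were below 5000 CPM.

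**Figure D1:**
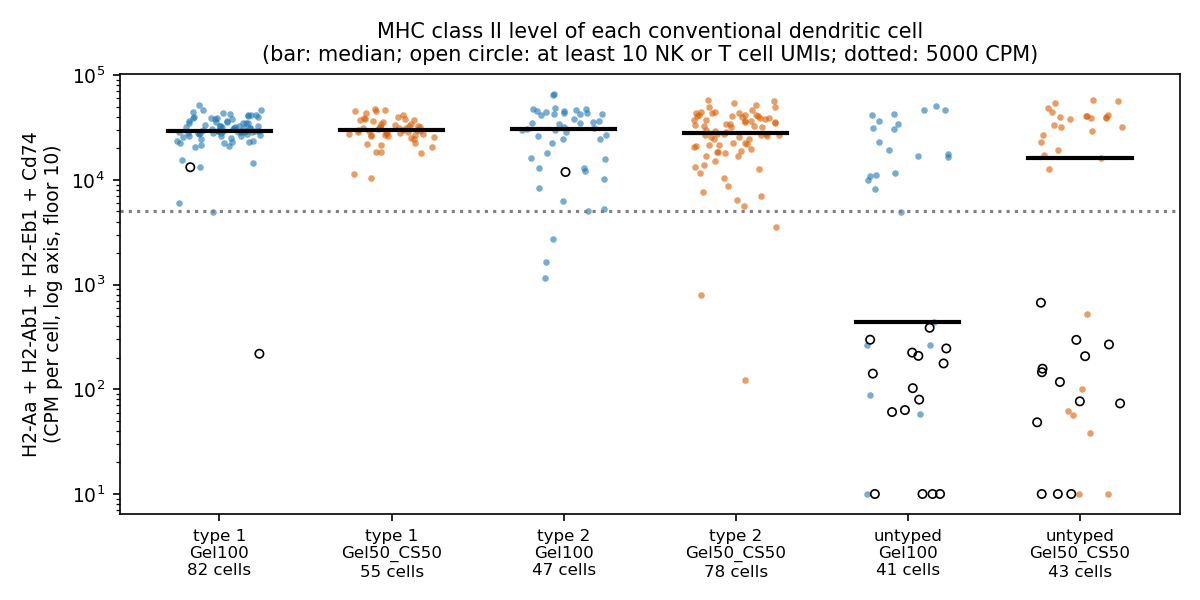
Summed level of H2-Aa, H2-Ab1, H2-Eb1 and Cd74 in each dendritic cell (CPM, log axis, values under 10 drawn at 10), 1 point per cell, for type 1, type 2 and untyped cells of each scaffold; bars are medians, open circles cells with at least 10 natural killer or T cell UMIs, and the dotted line 5000 CPM. Type 1 and type 2 cells have medians between 28048 and 30436 CPM, while the untyped cells fall into a high and a low cloud on either side of the dotted line.

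Flt3 was seen in 78 of 82 and 55 of 55 type 1 cells, but in 19 of 47 and 39 of 78 type 2 cells, and Zbtb46 in 25 and 47 of the type 2 cells. The 5 rule markers summed to 962 and 993 CPM in type 2 cells, mostly from Cd209a. Flt3 and Zbtb46 were each seen in only part of the type 2 cells. The label of these cells thus rests mainly on MHC class II and on Cd209a, the gene that chose them. It is a name given by the rule. Type 2 cells also held macrophage and monocyte markers. Their sums, given next, cover other numbers of genes and are not compared with that of the rule markers. Natural killer cell markers summed to 1612 and 1037 CPM in untyped cells, against 91.5 and 55.1 in type 1 and 58.4 and 29.2 in type 2 cells. Stromal markers summed to 145 and 1728 CPM in untyped cells, 42.3 and 129.6 in type 1 and 42.2 and 123 in type 2 cells. Endothelial markers summed to 288 and 591 CPM in untyped cells. Macrophage markers, 9 genes led by Apoe and Mrc1, summed to 464 and 304 CPM in type 1 and 1607 and 1868 in type 2 cells. Monocyte markers, 7 genes, summed to 1294 and 921 CPM in type 1 and 2942 and 2578 in type 2 cells. Neutrophil markers, 7 genes, summed to 11.1 and 12.2 CPM in type 1 cells, with 3 and 2 of them at 0, and to 16.2 and 105 in type 2 cells, with 3 and 0 at 0. What cells bearing such markers contribute to the results on type 2 cells was not tested. Nor was it tested how many of the type 2 cells are conventional dendritic cells. For these reasons results are given for the 129 and 133 typed cells and for each type, and for all 346 cells only where stated.

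The threshold of 4 UMIs also bears on the untyped cells. Just inside it lay 19 and 13 cells with 4 UMIs, with a median MHC class II level of 262 and 268 CPM, and 14 and 9 of them had Zbtb46 as the only marker. Just outside it lay 32 and 25 cells with 3 UMIs, with medians of 201 and 223 CPM. Before the exclusions, 692 and 634 cells met the marker minimum. Siglech alone removed 345 and 241 of these, Ccr7 and Fscn1 alone 126 and 141, C1q genes alone 5 and 13, and Cd3e alone 5 and 10.

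The share of conventional dendritic cells among kept cells was nearly equal on the scaffolds, while the types were split differently. Counted over all 346 cells, untyped included, the share was 2.46% (2.11 to 2.86, exact Clopper-Pearson) in Gel100 and 2.41% (2.07 to 2.79) in Gel50_CS50. The difference was -0.0512 percentage points (-0.563 to 0.457, Newcombe). Typed cells alone, a count chosen after seeing the data, were 1.87% and 1.82% of kept cells. Type 1 cells were 82 of 170 (48.2%, 40.5 to 56.0) in Gel100 and 55 of 176 (31.3%, 24.5 to 38.7) in Gel50_CS50, a difference of -17.0 points (-26.8 to -6.68). Type 2 cells were 47 of 170 (27.6%, 21.1 to 35.02) and 78 of 176 (44.3%, 36.8 to 52.0), a difference of 16.7 points (6.56 to 26.3). Untyped cells were 24.1% and 24.4%, a difference of 0.314 points (-8.72 to 9.30).

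Of the typed cells alone, type 1 cells made up 63.6% (54.6 to 71.9) in Gel100 and 41.4% (32.9 to 50.2) in Gel50_CS50. Counted over all kept cells, type 1 cells were 1.19% and 0.754%, and type 2 cells 0.681% and 1.07%. The differences of -0.435 points (-0.768 to -0.112) and 0.388 points (0.0804 to 0.701) both exceeded counting error, and whether they exceed the spread between mice cannot be told from 1 library a group. Median depth was 25398 and 25595 UMIs in type 1 cells and 21712 and 19850.5 in type 2 cells. Macrophage and monocyte markers were highest in type 2 cells, as given above, so the split is one between cells named by the rule.

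**Figure D2:**
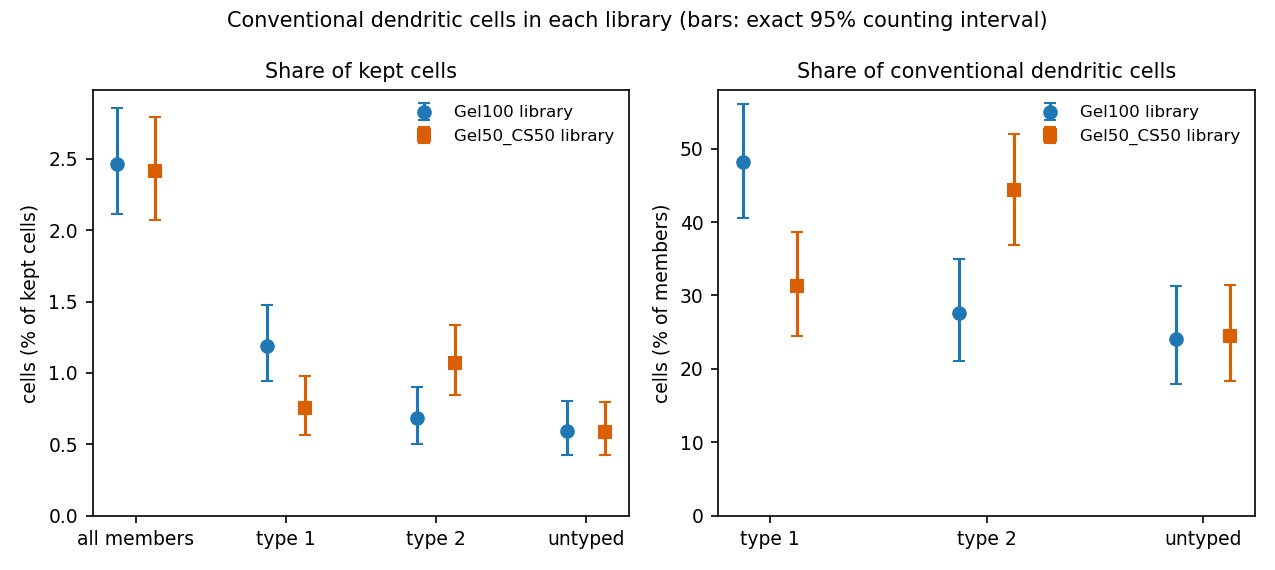
Conventional dendritic cells of each scaffold as a percent of kept cells (left) and each type as a percent of conventional dendritic cells (right); points are shares and bars exact 95% intervals for counting error. Type 1 was higher in Gel100 (48.2% against 31.3% of the dendritic cells) and type 2 in Gel50_CS50 (44.3% against 27.6%).

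Mature dendritic cells, with at least 4 UMIs of Ccr7, were 139 and 135 cells, or 2.01% and 1.85% of kept cells, a difference of -0.164 points (-0.622 to 0.290). Together with the typed cells, they formed 51.9% and 50.4% of that sum, a difference of -1.49 points (-9.88 to 6.93). A wider set by at least 4 UMIs of Ccr7 and Fscn1 together held 256 and 467 cells, but 96 and 317 of these carried at least 20 UMIs of stromal markers, so it was not used for levels. Plasmacytoid dendritic cells, with at least 4 Siglech UMIs, were 6.16% and 3.67% of kept cells.

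Between the 2 types, genes were counted only where they differed the same way in both libraries. Of 5841 genes that averaged at least 20 CPM, 279 (4.78%) were over 2-fold higher in type 1 cells in both libraries and 538 (9.21%) were over 2-fold higher in type 2 cells in both. A list of genes known from type 1 cells had 15 of 19 measured members in the first set and 0 in the other, with a median log2 ratio of type 1 over type 2 of 3.53 and 3.35, against -0.01 and -0.09 over all genes. A list known from type 2 cells had 0 of 16 higher in type 1 and 13 higher in type 2, with medians of -2.87 and -3.47. These lists were put together with results of these data known.

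Among genes that averaged at least 50 CPM, the gene with the widest margin in type 1 cells, apart from those of the rule, was Itgae, which encodes the integrin CD103. It was at 198 and 201 CPM in type 1 and 0.899 and 1.06 in type 2 cells. Irf8, the transcription factor that type 1 cells require, was at 1561 and 1312 CPM in type 1 and 53.9 and 54.7 in type 2 cells, log2 ratios of 4.86 and 4.58. Wdfy4, needed for cross-presentation of cell-associated antigen, was at 1883 and 1991 against 146 and 174 CPM. Tlr3, a sensor of double-stranded RNA, was at 117 and 87.4 against 4.49 and 6.37 CPM, and Btla, an inhibitory receptor, at 443 and 470.5 against 23.4 and 40.9. The small GTPase Rab7b was at 436 and 332 against 16.2 and 27.1 CPM. These genes were chosen for being higher in type 1 cells in both libraries. The level in the same type differed little between scaffolds beside the gap between types. Ank1, 4931406G06Rik, Lrrc1, Ccser1, Laptm4b, Tbc1d8, Gm36723 and Sept3 were also among the 15 genes with the widest margins.

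Within the same limit, the widest margin in type 2 cells was that of Mgl2, a lectin that binds galactose and N-acetylgalactosamine, at 5.11 and 2.15 CPM in type 1 and 626 and 361 in type 2 cells. Ccr1, a receptor of inflammatory chemokines, was at 1.86 and 2.15 against 96.2 and 106 CPM. Clec10a, the paralogous lectin, was at 7.43 and 7.88 against 140.2 and 141. Mrc1, the mannose receptor, which macrophages also express, was at 21.8 and 2.86 against 442 and 577 CPM, and Fn1, fibronectin, at 7.43 and 23.6 against 507 and 766. Cybb, the catalytic subunit of the phagocyte NADPH oxidase, was at 72.9 and 59.4 against 1157 and 1018 CPM. Tnfsf9, the ligand of the T cell receptor 4-1BB, was at 13.9 and 18.6 against 312 and 272. The others of the 15 were Cyp7b1, Cd209d, Plcb1, Tgm2, Slc7a11, Creb5, Colec12 and Tmem176a. In C1q macrophages, cells with at least 20 UMIs of the C1q genes, Mrc1 was at 386 and 857 CPM, Fn1 at 239 and 568 and Mgl2 at 0.614 and 1.24. Reads of the near-identical genes Cd209a and Cd209d, of the Clec4a and Ly6 families, of the H2 class I, Gbp, Tgtp, Ifit, Oas and Ifi200 families and of Csf2rb and Csf2rb2 can be assigned to the wrong copy, so their levels are uncertain.

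**Figure D3:**
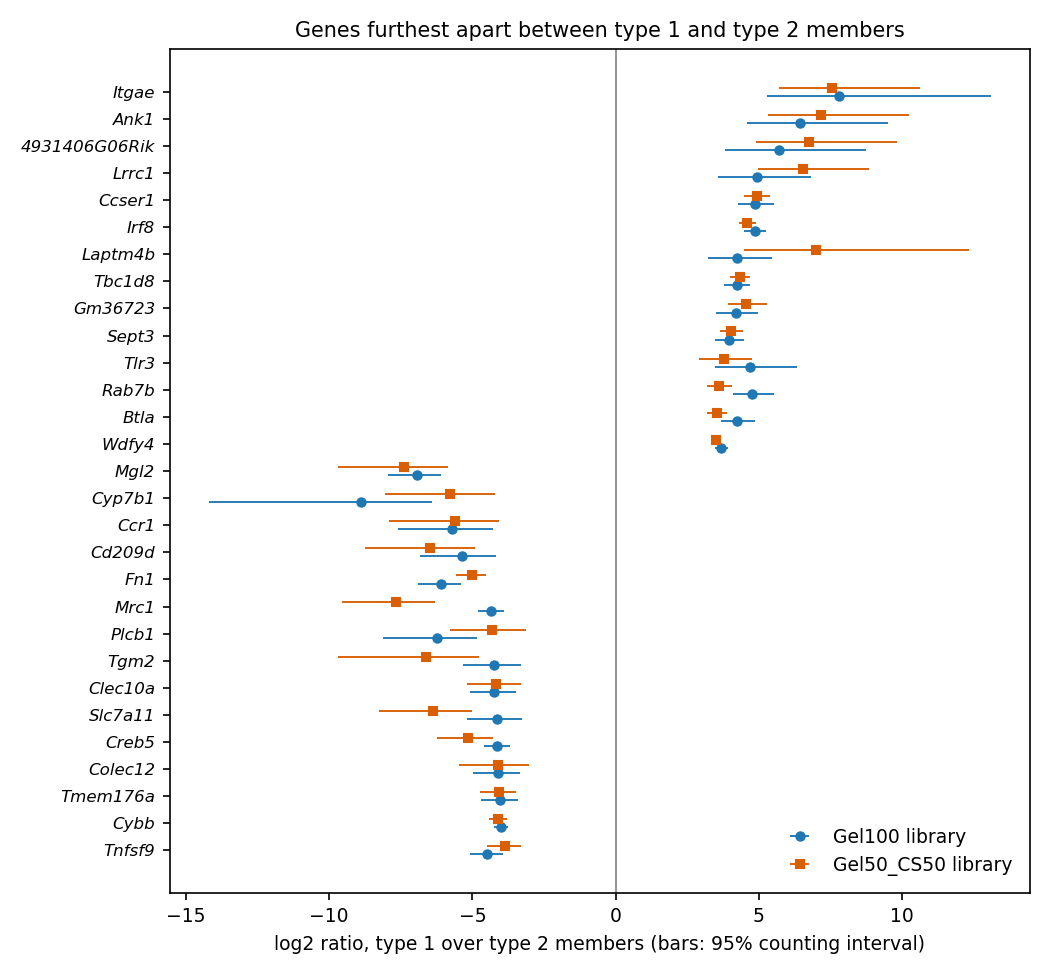
Log2 ratio of type 1 over type 2 cells for 14 of the 15 genes with the widest margin in type 1 cells and the 15 with the widest margin in type 2 cells, with 1 point per scaffold and bars for the 95% counting interval; points right of 0 are higher in type 1. The genes were chosen for a like direction on both scaffolds, with Itgae (7.78 and 7.57) first among the upper 14 and Mgl2 (-6.94 and -7.39) first among the lower 15.

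Transcription factors split in both directions, with 5 of 23 higher in each type, beside 4.78% of all genes higher in type 1 and 9.21% in type 2. Batf3, partner of IRF8, was at 154 and 168 CPM in type 1 and 36.8 and 52.6 in type 2 cells, and Id2, an inhibitor of E proteins, at 1069 and 995 against 241 and 151. Irf4 was at 5.11 and 2.86 against 73.7 and 67.4 CPM and Zeb2, a repressor of the type 1 fate, at 190.5 and 133 against 2392 and 2296. The cystatin Cst3, abundant in dendritic cells, was at 13317 and 13134 CPM in type 1 and 2270.0 and 2662 in type 2 cells. Spi1, which encodes PU.1, was at 321 and 314 against 457 and 368 CPM and stayed within 2-fold.

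Chemokines, their receptors and cytokines were more often higher in type 2 cells, with 0 genes of these lists higher in type 1. Of 15 measured chemokines 8 were higher in type 2, of 11 trafficking receptors 7, and of 9 cytokines 5. Over all genes, 4.78% were higher in type 1 and 9.21% in type 2. Ccr2, through which monocytes and their progeny reach tissue, was at 203 and 162 CPM in type 1 and 815 and 778 in type 2 cells. Cxcl2, a neutrophil attractant, was at 151 and 135 against 1463 and 1422 CPM. The cytokine gene Tnf was at 70.6 and 93.8 against 616 and 354 CPM. Il1b was at 1624 and 2214 in type 1 and 2057 and 2282 in type 2 cells, but 10629.8 and 15938 in neutrophils, and free RNA from those cells was not measured.

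Pattern receptors were divided, with Tlr3 higher in type 1 and 5 of 12 measured genes higher in type 2, among them Nlrp3, the inflammasome sensor, at 77.1 and 95.2 against 445 and 465 CPM and Clec4n, which encodes Dectin-2, at 18.1 and 5.73 against 189.6 and 274. These counts, and those of the MHC lists, stand beside 4.78% of all genes higher in type 1 and 9.21% in type 2. MHC class II genes were 0 and 2 of 12 higher in type 1 and type 2. H2-Aa was at 7539.6 and 7912 CPM in type 1 and 6769.7 and 6542 in type 2 cells. MHC class I genes were 2 and 0 of 16, the 2 being the immunoproteasome subunit Psmb9, at 637 and 532 against 195 and 143 CPM, and the peptide transporter subunit gene Tap2, at 135 and 106 against 66.5 and 37.7.

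Against mature Ccr7 dendritic cells the typed cells were low in maturation genes and high in MHC class II. The cells of each set were chosen by different genes, so these levels are a description. Ccl22, a chemokine of mature cells, was at 2.79 and 15.8 CPM in type 1, 16.2 and 50.5 in type 2 and 873 and 1251 in mature cells. Relb, an NF-κB subunit of maturation, was at 130.1 and 139, 183 and 153 and 837 and 738 CPM. The costimulatory gene Cd80 was at 94.8 and 187, 208 and 295 and 811 and 703 CPM, and Cd40 at 90.6 and 105, 255 and 220.4 and 639 and 661. Cd86, a second ligand of CD28, was nearer between the sets, at 939.7 and 779.8, 1386 and 921 and 1279 and 1416 CPM. H2-Aa ran the other way, at 4837 and 4410.3 CPM in mature cells, 693 and 829 in plasmacytoid cells and 533 and 612 in C1q macrophages. Irf8 was at 749 and 377 CPM in mature and 1881 and 1784 in plasmacytoid cells, which also depend on it.

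**Figure D4:**
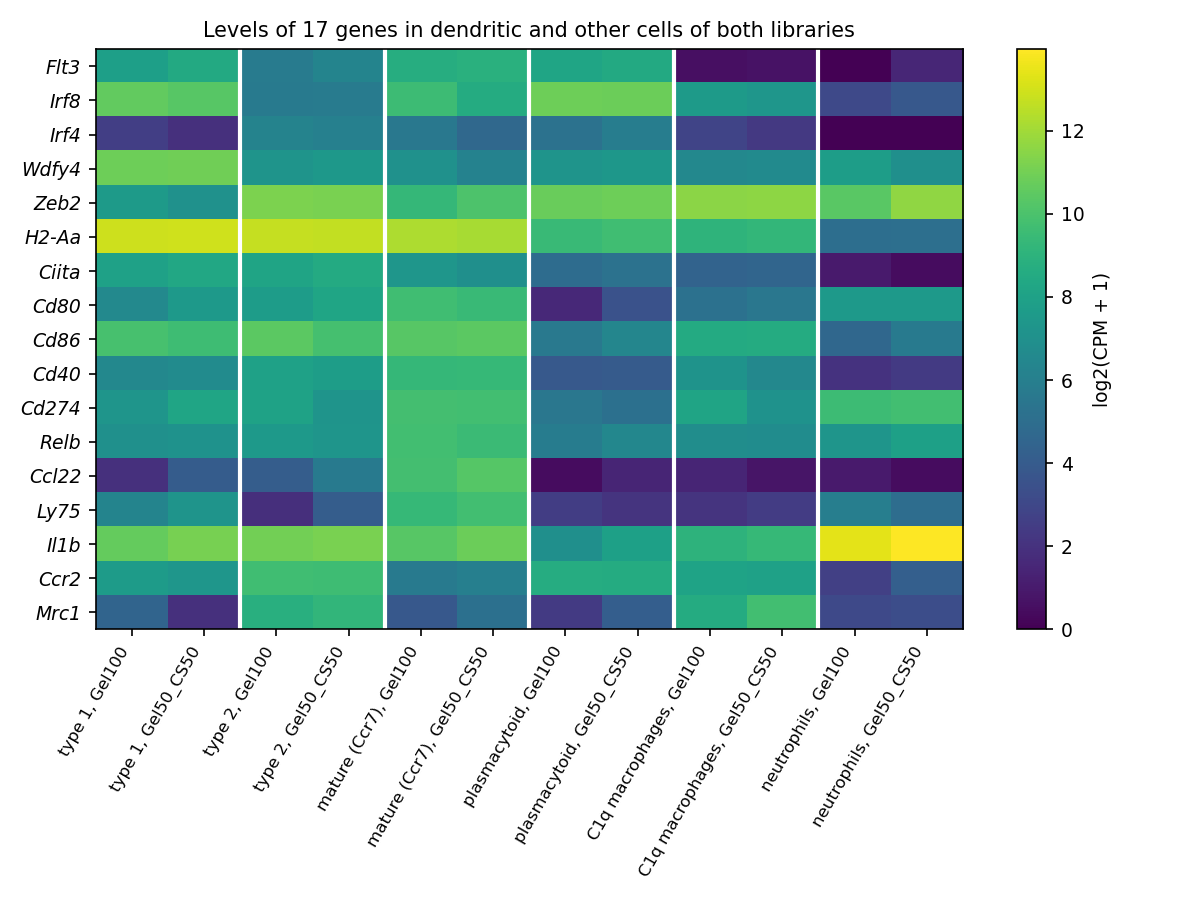
Levels of 17 genes (rows) as colour, on a log2(CPM + 1) scale, in type 1, type 2, mature Ccr7 and plasmacytoid dendritic cells, C1q macrophages and neutrophils, with 1 column per cell group and scaffold. Relb, Cd40 and Cd80 are brightest in mature cells, H2-Aa in type 1 and type 2 cells, and Il1b in neutrophils.

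Between the scaffolds, genes of the type I interferon response were lower in the dendritic cells of Gel50_CS50. This list, like the others below, was put together with results of these data known. In typed cells, 14 of 28 measured genes of the list were below 1/1.5-fold and 0 above 1.5-fold, with a median log2 ratio of -0.60. Over all 5867 genes measured in typed cells, 236 (4.02%) were below and 343 (5.85%) above, with a median of 0.03. In type 1 cells, 19 of 27 were below and 0 above, with a median of -0.92, where 440 of 5607 genes (7.85%) were below and 251 (4.48%) above. In type 2 cells, 15 of 28 were below and 0 above, with a median of -0.69, where 332 of 5843 genes (5.68%) were below and 590 (10.1%) above. The same list had a median of -0.90 in all other kept cells of the libraries, so a lower level was not particular to dendritic cells.

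Rsad2, which encodes the antiviral enzyme viperin, was at 136 and 43 CPM in type 1 and 646 and 146 in type 2 cells, log2 ratios of -1.66 (-2.09 to -1.26) and -2.15 (-2.36 to -1.95). Ifit2, a protein that binds viral RNA, was at 382 and 153 and, in type 2 cells, 439 and 143 CPM. In both genes the level in Gel50_CS50 was under that in Gel100 in each type. In neutrophils, Rsad2 was at 3482 and 2471 CPM.

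Irf7, the factor that amplifies interferon production, was at 1099 and 478 CPM in type 1 cells, a log2 ratio of -1.20 (-1.33 to -1.08), and 451 and 320.2 in type 2 cells, -0.49 (-0.67 to -0.32). Isg15, a ubiquitin-like modifier, was at 628 and 274 in type 1 and 732 and 440.3 in type 2 cells. Usp18, the protease that removes ISG15, was at 223 and 70.2 and 173 and 92.4 CPM, and Oasl1, a 2'-5' oligoadenylate synthetase-like protein, at 377 and 129 and 518 and 317. Ifit1 was at 56.7 and 63 CPM in type 1 cells, a ratio of 0.15, but 1 Gel50_CS50 cell held 56.8% of its UMIs there, and without the top cell of each library the ratio was -0.76. Ifit1 in type 2 cells was at 268 and 131 CPM. Ifitm3, an inhibitor of virus entry, was at 1733 and 1583 and 3177 and 2328, within 1.5-fold in both types. Bst2, which encodes tetherin, also stayed within 1.5-fold, at 391 and 327 in type 1 and 355 and 277 in type 2 cells.

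**Figure D5:**
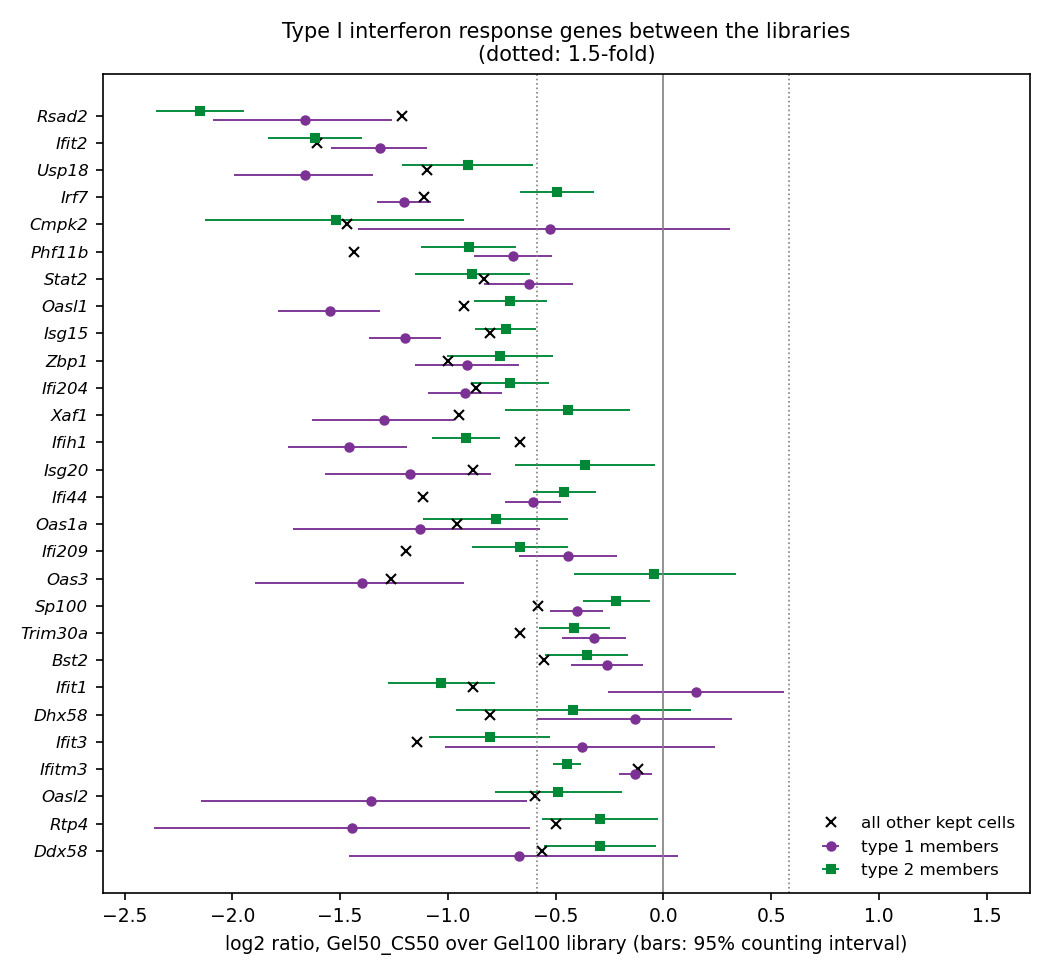
Log2 ratio of Gel50_CS50 over Gel100 for each measured gene of the type I interferon list in type 1 cells, type 2 cells (bars are 95% intervals for counting error) and all other kept cells (crosses); dotted lines mark 1.5-fold. Of the points for dendritic cells, that of Ifit1 in type 1 cells (0.15, or -0.76 without the top cell of each library) lies right of 0, and Rsad2 lies at -1.66 and -2.15.

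The promoters of these genes are shown for the interferon-stimulated response element, the site through which type I interferon signalling acts on its target genes. The motif, GAAA followed by any 2 bases and then GAAA, was searched on both strands, with overlapping matches counted, in the 250 bases before each RefSeq start on GRCm38.p6. Of the listed genes, 23 matched the RefSeq table, with 28 promoters. It was present in 10 of the 28 (35.7%), those of Bst2, Ifit1, Ifit3, Isg15, Oas1a, Oas3, Phf11b, Rsad2, Stat2 and Trim30a, against 978 of all 32851 promoters (2.98%). The promoters below belong to 3 genes of the list that were lower in both types and hold the motif, printed 5′ to 3′ on the gene's strand with matches in capitals.
Rsad2: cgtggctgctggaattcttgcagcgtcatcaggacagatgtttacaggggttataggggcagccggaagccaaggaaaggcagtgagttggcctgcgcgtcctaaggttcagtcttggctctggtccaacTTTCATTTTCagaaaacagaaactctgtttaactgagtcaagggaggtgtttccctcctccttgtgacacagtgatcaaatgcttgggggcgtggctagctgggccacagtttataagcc
Isg15: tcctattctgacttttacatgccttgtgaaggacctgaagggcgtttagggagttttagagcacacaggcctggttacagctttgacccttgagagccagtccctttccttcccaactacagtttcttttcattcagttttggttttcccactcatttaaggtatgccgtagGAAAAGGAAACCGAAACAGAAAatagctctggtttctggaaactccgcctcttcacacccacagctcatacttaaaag
Phf11b: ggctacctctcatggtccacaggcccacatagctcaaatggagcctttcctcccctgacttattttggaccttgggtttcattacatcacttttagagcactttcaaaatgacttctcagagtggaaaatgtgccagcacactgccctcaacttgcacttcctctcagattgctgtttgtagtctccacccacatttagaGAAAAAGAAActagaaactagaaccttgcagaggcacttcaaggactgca
They lie on the minus strand at chr12:26456453-26456702 (Rsad2, 1 match), chr4:156200819-156201068 (Isg15, 3 overlapping matches) and chr14:59341331-59341580 (Phf11b, 1 match). Phf11b, a PHD finger gene, was at 407 and 251 CPM in type 1 and 323 and 173 in type 2 cells. The Ifit2 promoters in the table did not hold these letters in this window, nor did that of Irf7, which was below 1/1.5-fold in type 1 cells. The promoters of Bst2 and Ifit1 held 2 matches each. Yet Bst2 stayed within 1.5-fold in both types, and Ifit1 had a positive ratio in type 1 cells unless the top cell of each library was left out. A match is a description of the sequence and shows no binding.

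Of the interferon gamma list, 6 of 11 measured genes in type 1 cells were below 1/1.5-fold and 1 above 1.5-fold, with a median of -0.61, where 7.85% of all genes were below and 4.48% above. Among type 2 cells 11 of 17 were below and 0 above, with a median of -0.81, where 5.68% were below and 10.1% above. Tgtp2, a GTPase of cell-autonomous defence, was at 46.9 and 23.6 CPM in type 1 and 74.6 and 21.8 in type 2 cells. Irgm1, another such GTPase, was at 131 and 73 and 148 and 73.3. Cxcl10, a chemokine for CXCR3-bearing T cells, was at 411 and 191 CPM in type 2 cells. The other kept cells had a median of -1.02 for the list.

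Ly6a, a surface protein of the Ly6 family that interferons induce, had the lowest ratio in typed cells among genes that averaged at least 50 CPM with their interval past 1.5-fold. It lies on chromosome 15 (74994877 to 74998031, minus strand). It was at 943 and 139 CPM in type 1 cells and 416 and 107 in type 2 cells, log2 ratios of -2.76 (-2.98 to -2.55) and -1.96 (-2.21 to -1.72), against -0.66 in the other kept cells. Neutrophils held 25.1 and 17.7 CPM, under the typed cells in both libraries. In type 1 cells its relatives Ly6e, at 476 and 116 CPM, and Ly6c2, at 162 and 36.5, were lower too.

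In typed cells, 3 of 16 MHC class I genes were below 1/1.5-fold and 0 above. Of 12 MHC class II genes 0 were below and 0 above, which is near the 4.02% and 5.85% of all genes, and the classes were not tested against each other. B2m, the light chain of MHC class I, was at 1647 and 927 CPM in type 1 and 2284 and 1844 in type 2 cells, and Nlrc5, the activator of MHC class I genes, at 120.3 and 63.7 and 212 and 91.3. H2-K1 was at 875 and 565 and 881 and 729 CPM. H2-Ab1 was at 5717 and 5237 and 5504 and 5108, and Cd74, the invariant chain, at 11081 and 11649 and 12286 and 11302, so all 4 class II values lay within 1.5-fold. The class I list had a median of -0.82 in the other kept cells and -0.39 in typed cells.

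Of the costimulatory and checkpoint genes, 2 of 13 were above and 0 below in typed cells, beside 5.85% and 4.02% of all genes. Cd274, which encodes PD-L1, was at 155 and 296 CPM in type 1 cells, a ratio of 0.93 (0.72 to 1.15), and at 262 and 149 in type 2 cells, -0.81 (-1.05 to -0.57). The difference between these ratios was not tested. Pdcd1lg2, which encodes PD-L2, was at 35.3 and 102 CPM in type 1 and 35.9 and 35.1 in type 2 cells. Cd80 was higher in Gel50_CS50 in type 1 cells, at 94.8 and 187 CPM, a ratio of 0.98, or 0.61 without the top cell of each library, and Cd86 was lower in type 2 cells, at 1386 and 921. Of the maturation genes, 5 of 11 were above and 0 below in typed cells, to be read beside the same shares. Within type 1 cells 0 of 8 were above and 1 below, beside 4.48% and 7.85% of all genes. Within type 2 cells 4 of 11 were above and 0 below, beside 10.1% and 5.68%. The 5 in typed cells included Ccl17, at 5.51 and 38.4 CPM, and Ccl22, at 7.35 and 35.7. Both were far under their levels in mature cells, of 109.9 and 269 and 873 and 1251. Over all 346 cells, Ccl17 had 19 and 134 UMIs, in 5 and 17 cells.

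Chemokines and cytokines showed no common direction in typed cells, with 3 of 15 chemokines above and 3 below and 1 of 9 cytokines above and 3 below, beside 5.85% and 4.02% of all genes. Ccl5, which attracts T cells and is made in quantity by natural killer and T cells, was at 71.5 and 5.01 CPM in type 1 and 259 and 45.7 in type 2 cells, a ratio in typed cells of -2.25 (-2.59 to -1.93), against -1.64 in the other kept cells. Natural killer cell marker sums in typed cells are given above. At least 10 UMIs of natural killer and T cell markers were held by 2 type 1 cells and 1 type 2 cell in Gel100. In Gel50_CS50, 0 cells of either type held as many. What these cells contribute to the Ccl5 ratio was not tested. Ccl2, the monocyte attractant, was at 184 and 34.8 CPM in typed cells, a ratio of -2.41, but 1 Gel100 cell held 69.4% of its UMIs, and without the top cell of each library the ratio was -1.13. Il15, which sustains natural killer and memory T cells, was at 33.4 and 3.58 CPM in type 1 and 54.8 and 34 in type 2 cells.

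Among genes of typed cells that averaged at least 50 CPM with their interval past 1.5-fold, the 10 highest ratios were those of Pde4d, Nrg1, Slc7a11, Nrp2, Tnfaip2, Adgrg6, Cd209d, Pla2g7, Arhgap24 and Fn1. These are ratios of the pool, whose share of type 1 cells differed between scaffolds. Within type 2 cells all 10 were positive, with Fn1 at 0.60. Within type 1 cells those of Nrg1, Slc7a11, Nrp2, Adgrg6, Cd209d and Arhgap24 were negative, at -0.25, -0.84, -1.45, -0.38, -0.38 and -2.34, and the others positive. Slc7a11 was at 5.11 and 2.86 CPM in type 1 cells and Cd209d at 2.79 and 2.15. Pde4d, a phosphodiesterase that breaks down cyclic AMP, was at 18.4 and 101 CPM, a ratio of 2.45 (2.05 to 2.88). It was seen in 27 and 53 cells, was similar in type 1 (2.28) and type 2 cells (2.27), and was 0.82 in the other kept cells. Nrg1, a ligand of ErbB receptors, was at 5.11 and 4.3 CPM in type 1 and 44 and 150.3 in type 2 cells, and Nrp2, a semaphorin receptor, at 41.3 and 157 in typed cells. Slc7a11, the cystine transporter, was at 34.3 and 138 CPM and Tnfaip2 at 36.1 and 126, but both were higher in neutrophils, at 2799 and 5353 and 1732 and 2574. Pde4d, Pla2g7 and Arhgap24 were also higher in neutrophils, at 207 and 161, 381 and 395, and 284 and 292 CPM. Nrg1 was at 45.1 and 26 CPM there, and Nrp2, Adgrg6, Cd209d and Fn1 were lower in neutrophils than in typed cells. Neutrophil markers summed to 16.2 and 105 CPM in type 2 cells, and their part in these ratios was not tested.

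By the same limits, the 10 lowest ratios in typed cells included those of Ly6a, Ccl2, Ccl5, Laptm4b, Rpl29, Rsad2, Ifit2, Lpl and Cd180. Lpl, lipoprotein lipase, was at 191 and 72.9 CPM, and Cd180, a Toll-like receptor homologue, at 134 and 51.8. Genes of the type lists had other ratios in the pool of typed cells, whose share of type 1 cells differed between scaffolds, than within a type: Irf8 had a ratio of -0.83 in typed cells but -0.25 within type 1 cells, and Sirpa, a receptor of type 2 cells, 1.04 in typed cells and 0.57 within type 2 cells. The type 1 list had a median of -0.49 in typed cells and -0.04 within type 1 cells, and the type 2 list 0.51 in typed cells and 0.13 within type 2 cells.

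Within type 1 cells, the highest ratio among genes that averaged at least 50 CPM with their interval past 1.5-fold was that of Ifitm1, a membrane protein that interferons induce in many cells, at 322 and 1275 CPM, a ratio of 1.98 (1.86 to 2.11). Ifitm1 is not on the interferon list, none of whose measured genes was above 1.5-fold in these cells. In type 2 cells its ratio was 0.31 and in the other kept cells 1.30. Ctla4, an inhibitory receptor that binds CD80 and CD86, was at 23.7 and 85.2 CPM, and Stat4, which relays interleukin-12 signals, at 48.8 and 136. Maml3, Pdcd1lg2, Plet1, Rtn1, Wfdc17, N4bp2l1 and Lpcat2 were also among the 10, and N4bp2l1 had a ratio of 1.20, or 0.68 without the top cell of each library. Ifngr1, the ligand-binding chain of the interferon gamma receptor, was at 145 and 281 CPM.

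By the same limits, the lowest ratios in type 1 cells were those of Ly6a, Spp1, Saa3, Lmna, Ly6c2, Ly6e, Emp1, Usp18, Rsad2 and Oasl1. Lmna, which encodes the lamins A and C of the nuclear envelope, was at 158 and 32.9 CPM. Spp1 and Saa3 rested on single Gel100 cells, which held 77.4% and 92.4% of their UMIs. Without the top cell of each library their ratios were -0.48 and 1.34. Of 11 measured lysosomal proteases 3 were below and 0 above, beside 7.85% and 4.48% of all genes in type 1 cells. Ctsd, cathepsin D, was among the 3, at 103 and 35.1 CPM. Without the top cell of each library, Ctsl had a ratio of -0.28 and Ctsb of -0.49, both within 1.5-fold. Without doublets, Ctsl was at 0.53.

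Within type 2 cells genes of dividing cells were among the highest ratios, by the same limits. Of 10 measured cell cycle genes 9 passed 1.5-fold upward and 0 downward, beside 10.1% and 5.68% of all genes, and the median ratio was 2.32. In type 1 cells 0 of 15 passed it upward and 10 downward, beside 4.48% and 7.85% of all genes, and the median ratio was -0.64. Top2a, the topoisomerase of chromosome condensation, was at 8.99 and 115 CPM in type 2 cells, in 5 and 18 cells, and 176 and 96 in type 1 cells. Mki67, which encodes the Ki-67 protein of dividing cells, was at 45.8 and 189 CPM in type 2 cells, in 14 and 35 cells, and 137 and 87.4 in type 1 cells.

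Counted per cell, the difference was within counting error. Cells with at least 3 UMIs of Mki67, Top2a, Birc5, Cdk1 and Cenpf together were 9 of 47 (19.1%) and 22 of 78 (28.2%) type 2 cells, a difference of 9.06 points (-6.96 to 22.97). They were 18 of 82 (22.0%) and 9 of 55 (16.4%) type 1 cells, a difference of -5.59 points (-18.2 to 8.53). In neutrophils, which do not divide once mature, 1.12% and 1.96% reached that count. With each cell thinned to 5000 UMIs, the share with at least 1 such UMI was 25.5% and 29.5% in type 2 cells, 19.8% and 23.6% in type 1 cells and 3.28% and 8.95% in neutrophils. The CPM of the sums thus differed more than the shares of cells.

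The other high ratios in type 2 cells within those limits were those of Tnfaip2, Pde4d, Pola1, Nrg1, Spp1, Ctsl, Cep128 and Smc4. Spp1, osteopontin, was at 44.9 and 135 CPM, under its 236 and 237 in neutrophils, whose part in this ratio was not tested. Its ratio in type 1 cells was -2.41, which rested on a single Gel100 cell as given above. Ctsl, cathepsin L, was at 141 and 388 CPM, but 1 Gel50_CS50 cell held 68.7% of its UMIs and the ratio was 0.48 without the top cell of each library. Fcgr2b, the inhibitory antibody receptor, was at 154 and 293 CPM. By the same limits, the lowest ratios were those of Lyz1, Retnla, Ear2, Ccl2, Ccl5, Rsad2, Ly6a, Ifit2, Lpl and Nt5c3. All Gel100 UMIs of Lyz1, at 189 and 6.37 CPM, and of Retnla, at 197 and 12.7, were held by 1 cell for each gene, and 1 Gel100 cell held 80.7% of those of Ear2. Tnf was at 616 and 354 CPM in type 2 cells, and Ccl4, which attracts T cells and monocytes, at 611 and 283.

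In 3 further lists the counts in typed cells lay near the share over all genes (5.85% above, 4.02% below). Immediate-early and heat-shock genes had 0 of 16 above and 0 below, glycolysis and hypoxia genes 1 of 13 above and 0 below, and trafficking receptors 1 of 11 above and 0 below. Fos, an immediate-early gene that tissue digestion is known to induce, was at 1435 and 1401 CPM in type 1 and 1374 and 1337 in type 2 cells. Ccr2 had a ratio of 0.33 in typed cells. The receptors of type I interferon were close to equal, Ifnar1 at 135 and 124 and Ifnar2 at 168 and 184 CPM.

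Over all 346 cells, untyped included, 268 of 6064 genes (4.42%) lay above 1.5-fold and 236 (3.89%) under 1/1.5-fold. Among genes from 50 CPM, with their interval past 1.5-fold, the highest ratios were those of Rgs5, Col4a1, Col4a2, Col3a1, Col1a1, Mgp, Col1a2, Ebf1, Sparc and Nrg1, of which all but Nrg1 are genes of stromal or vessel-wall cells. Rgs5, a pericyte marker, was at 5.3 and 143 CPM, from 4 and 2 cells. Col4a1, a basement membrane collagen, was at 18.1 and 175 CPM, from 6 and 11 cells, with 72 and 824 in untyped and 3.37 and 1.52 in typed cells. The lowest by these limits were Ccl2, Mmp12, Car2, Ly6a, Lpl, Gzmb, Ly6c1, Ccl5, Rpl29 and Cd180. Mmp12, a macrophage elastase, was at 141 and 20.2 CPM in all 346 cells, a ratio of -2.80, but 1.73 in typed cells. Gzmb, the granzyme of cytotoxic lymphocytes, was at 79.9 and 23.6 CPM in all 346 cells and 7.04 and 0.915 in typed cells. Stromal and natural killer cell marker sums in untyped cells are given above.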

How the data were processed

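Single cells were profiled with a 10x 3' kit, 1 library per scaffold, from the pooled cells of 5 mice each. The deposited values are UMI counts per gene and cell, made by the authors with Cell Ranger 6.0.2, per the file headers, on mm10, per the submitters' processing notes. The annotation release was not given in these sources. Cells under 1000 UMIs or over 20% mitochondrial UMIs were left out here. Doublets called by Scrublet in each library (expected rate 0.06, scanpy 1.11.5) were kept, and removed as an alternative. Counts were summed over cells and scaled to CPM. With 1 library a group no test was made: shares have exact Clopper-Pearson or Newcombe intervals and ratios exact conditional binomial intervals (95%, scipy 1.17.1, Python 3.11.15). Genes averaging at least 20 CPM were counted, and called above or below when their ratio passed 1.5-fold, or 2-fold in both libraries between types. Symbols on several identifiers (38) were left out of the counts. The text names the 10 genes with the highest and the 10 with the lowest ratio, taken from those that averaged at least 50 CPM with their whole interval past 1.5-fold, the 15 widest each way between types, list members with the largest ratios, and genes that define a list. Members, markers and gene lists were chosen with earlier results of these data known. The ratio and interval code was tested on simulated data. Gene positions are from GENCODE on mm10, and promoters from RefSeq on GRCm38.p6. Alternatives changed the marker minimum, depth, doublets, scaling, mix of types and level filter. Values of a few named genes are not reported here.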

Additional observations from a re-analysis of the deposited data

How the results depend on the processing

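Each group is 1 library, so no spread between mice could be measured and no library could be left out. No paired analysis was possible because each group is 1 library and the replicate number in the labels names no shared animal. The share of conventional dendritic cells in Gel100 was 2.93% with a marker minimum of 3 UMIs and 2.01% with 6. It was 3.07% and 2.90% among cells of at least 5000 UMIs, and 2.80% in Gel50_CS50 with cells thinned to 5000 UMIs. Counting typed cells only, an alternative chosen after seeing the data, gave 1.87% and 1.82%. The type 1 share in Gel100 was 57.6% with a minimum of 6 UMIs, and 63.6% and 41.4% over typed cells only. Mature cells by Ccr7 alone, also chosen after seeing the data, were 2.01% and 1.85%, against 3.71% and 6.403% by Ccr7 and Fscn1. Removing doublets, a C1q limit of 2 UMIs, a mitochondrial limit of 10%, leaving out shared barcodes and calling type 1 from 4 UMIs moved none of the shares or gene counts they were run on. Counts of genes past 1.5-fold depended on depth and on the level filter. Over all dendritic cells, 688 were above and 623 below after thinning to 3000 UMIs, 118 and 131 among genes from 50 CPM, and 2756 and 1889 with no minimum. In type 1 cells only, 440 were below, and in type 2 cells only, 590 above. In typed cells the counts were 839 and 653 after thinning, 143 and 121 from 50 CPM, and 2416 and 1764 with no minimum, and 215 were above with the same mix of types. Between types, 156 and 262 genes passed 2-fold after thinning and 181 and 318 from 50 CPM. The median of the type I interferon list over all dendritic cells was -0.91 in type 1 cells only, and of 20 lists 4 (type I interferon, interferon gamma, MHC class I, and glycolysis and hypoxia) kept the sign of their median under every alternative run, while 16 changed it under at least 1. A change of direction was recorded only for genes whose main interval lay wholly past 1.5-fold, so genes not listed here can change direction too. By that limit, named genes that changed direction from their ratio over all dendritic cells were as follows. With a minimum of 6 UMIs, Car2 was at 0.81, Mgp at -1.53 and Mmp12 at 1.504. In typed cells only, Col4a1 was at -1.14, Col4a2 at -0.0061, Ebf1 at -0.59, Mgp at -0.084 and Mmp12 at 1.73. In type 1 cells only, Cd209d was at -0.38, Clec4n at -1.66, Csf1r at -0.60, Mrc1 at -2.93, Nrg1 at -0.25 and S100a4 at -0.076. In type 2 cells only, Clec12a was at 0.18, Col4a1 at -2.50, Col4a2 at -1.17, Ebf1 at -2.34, Irf8 at 0.021, Mgp at -1.22, Mmp12 at 2.07, Rab7b at 0.74 and Tlr3 at 0.50. These restrictions to typed cells or 1 type were chosen after seeing the data. Within typed cells, Ctsl was at -0.58 with a minimum of 6 UMIs, and within type 2 cells at -0.20. Within type 1 cells, Cd63 was at 0.58 after thinning, Ctsl at 0.53 and Saa3 at 1.42 without doublets, and Saa3 at 1.34 without the top cell of each library, the last chosen after seeing the data. Within type 2 cells, Stat2 was at 0.0062 after thinning. The cause was not tested in any of these.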
